A study of Mus musculus with 4 samples.

Results

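Neuregulins are growth factors with an EGF-like domain, and the ErbB receptors are the tyrosine kinases that they and the other EGF family ligands bind. Ligand binding brings 2 receptors together, which phosphorylate each other and start Ras, PI3 kinase and STAT signalling. In the hippocampus the pathway is best known in inhibitory interneurons, where ErbB4 receives neuregulin signals that shape inhibitory transmission and plasticity. The 8 mouse genes described here are the ligand genes Nrg1, Nrg2, Nrg3 and Nrg4 and the receptor genes Egfr, Erbb2, Erbb3 and Erbb4. They were chosen by name and family, out of 21887 protein-coding genes on chromosomes 1 to 19, X and Y. Each was examined over its body and 3 kb on either side (mm10, RefSeq gene positions) for peaks of chromatin immunoprecipitation followed by sequencing (ChIP-seq) for TIMELESS, which is studied as a clock protein and as a component of the replisome.

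There were 3 TIMELESS libraries and 1 input library, which skipped the immunoprecipitation, all from hippocampus of adult C57BL/6N mice with no treatment named. Separate animals are not named for the TIMELESS libraries, and their spread may thus be technical. In the library labelled TIMELESS replicate 3 the header calls the reads and peaks a second input, so the main counts are also given without it or for each library by itself. Tags kept by the peak caller numbered 8425679, 13572739 and 30454118 for replicates 1, 2 and 3 and 14669253 for the input, and the lists held 7454, 24659, 89043 and 306 peaks. Peaks were called in each library alone, without the input as control. The smallest p of an exact permutation test of 3 libraries against 1 is 0.25, so the comparison with the input has no test. Expression was not measured in these files.

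TIMELESS peaks lay almost wholly in the 3 longest genes, Nrg1, Nrg3 and Erbb4, each over 1 Mb. These made up 87.1% of the sequence examined and held 152 of the 158 TIMELESS peaks in the 8 genes, and all 158 peaks lay in the gene bodies rather than in the 3 kb beside them. Nrg2 held 4 peaks and Egfr held 2, and Nrg4, Erbb2 and Erbb3 held none. Peaks of replicates 1, 2 and 3 lay in 3, 4 and 5 of the 8 genes, against 7.75%, 17.3% and 30.2% of all protein-coding genes. Of the 227 protein-coding genes of at least 500 kb, 188, 220 and 227 held one, and 3 of the 8 genes are of that length. The input had 0 peaks in the 8 genes, and its nearest peak to any of them lay 1097 kb from Erbb4. Input peaks were rare everywhere, in 0.434% of all protein-coding genes, so their absence from 8 genes is not particular to them.

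Overlapping peaks of different TIMELESS libraries were merged into sites, with an overlap of at least 1 bp, and sites over an input peak were left out. Of 143 sites in the 8 genes, 132 came from a single library, 8 from 2 libraries and 3 from all 3. The 11 sites met by 2 or 3 libraries lay in Erbb4 (5), Nrg1 (4) and Nrg3 (2). Thus 3 of 8 genes, or 37.5%, held such a shared site, against 9.92% of all protein-coding genes. Among the 227 protein-coding genes of at least 500 kb it was 89.9%, and the 3 members that held a shared site are the 3 of that length. Without replicate 3 the same 3 genes held a shared site, against 5.54% of all protein-coding genes and 72.2% of those of at least 500 kb. Sites of all 3 libraries lay in 2 of 8 genes, against 4.18% of all protein-coding genes and 57.7% of those of at least 500 kb. No test of the gene group was made.

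Of the ligand genes, Nrg1 encodes the best-known neuregulin, which binds ErbB3 and ErbB4 and is made in many forms. It spans 1084 kb of chromosome 8 (31807452 to 32891609) and held 1, 9 and 33 peaks in TIMELESS replicates 1, 2 and 3. That is a density of 0.0917, 0.826 and 3.03 peaks per 100 kb, against 0.201, 0.627 and 2.09 over all protein-coding genes in the same libraries. Against genes of at least 500 kb, whose densities were 0.256, 0.800 and 3.38, the density in Nrg1 was 0.358, 1.03 and 0.896 times as high. The value of replicate 1 rests on a single peak, and its Poisson interval of 0.00232 to 0.511, for counting error only, includes 0.256. A low density is thus not shown there, and in the deeper libraries the density was close to that of long genes.

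Nrg3 encodes a brain-enriched neuregulin that binds ErbB4. It spans 1108 kb of chromosome 14 (38365102 to 39473235) and held 1, 4 and 37 peaks in replicates 1, 2 and 3, or 0.0898, 0.359 and 3.32 per 100 kb. The density was 0.350, 0.449 and 0.983 times that of genes of at least 500 kb, lower in replicates 1 and 2 and about equal in replicate 3.

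Nrg2, a neuregulin of adult hippocampal neurons, spans 183 kb of chromosome 18 (36014581 to 36197532) and held 0, 1 and 3 peaks. The peak of replicate 2 at 36050646 to 36051052 had a pileup, the fragment coverage at the summit, of 13 and a fold over the caller's background of 4.79. The peaks of replicate 3 had pileups of 25, 19 and 21, and none of them met the peak of replicate 2. Nrg4, a small ligand of ErbB4 known best from fat tissue, spans 63.4 kb of chromosome 9 (55220222 to 55283654) and held no peak. The nearest TIMELESS peaks to Nrg4 lay 296, 290 and 75.5 kb away in replicates 1, 2 and 3.

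Of the receptor genes, Erbb4 encodes the receptor that binds all 4 neuregulins and is the main ErbB receptor of cortical and hippocampal interneurons. It spans 1077 kb of chromosome 1 (68031884 to 69108576) and held 3, 11 and 53 peaks in replicates 1, 2 and 3, the most of the 8 genes in every TIMELESS library. Its density was 0.277, 1.02 and 4.90 peaks per 100 kb. The 95% Poisson intervals, which cover counting error only, ran from 0.0571 to 0.810, from 0.507 to 1.82 and from 3.67 to 6.40. Relative to all protein-coding genes the density was 1.38, 1.62 and 2.34 times as high. Relative to those of at least 500 kb it was 1.08, 1.27 and 1.45 times as high. Erbb4 thus stood above both backgrounds in 3 of 3 libraries. The interval lay above the density of long genes in replicate 3 alone, and included it in replicates 1 and 2.

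Egfr encodes the receptor of EGF, which does not bind neuregulins by itself. It spans 162 kb of chromosome 11 (16752203 to 16913907) and held 0, 0 and 2 peaks, both of them in replicate 3, with pileups of 23 and 21 and folds of 4.30 and 4.001. The nearest peaks of replicates 1 and 2 lay 370 and 58.9 kb from the gene. Erbb2 encodes the receptor that has no known ligand of its own and serves as the preferred partner of the others. It spans 25.2 kb of chromosome 11 (98412484 to 98437716), held no peak, and had its nearest peaks 70.6, 25.6 and 7.92 kb away in replicates 1, 2 and 3. Erbb3 encodes a neuregulin receptor with a weak kinase. It spans 22.1 kb of chromosome 10 (128567523 to 128589635), held no peak, and had its nearest peaks 431, 242 and 39.7 kb away. Of all protein-coding genes, 65.2% held no TIMELESS peak, against 3 of the 8 genes here. The lengths are unlike, with a median of 172 kb in the 8 genes and 17.2 kb over all protein-coding genes. The 3 without a peak are among the 5 members under 500 kb.

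**Figure D1:**
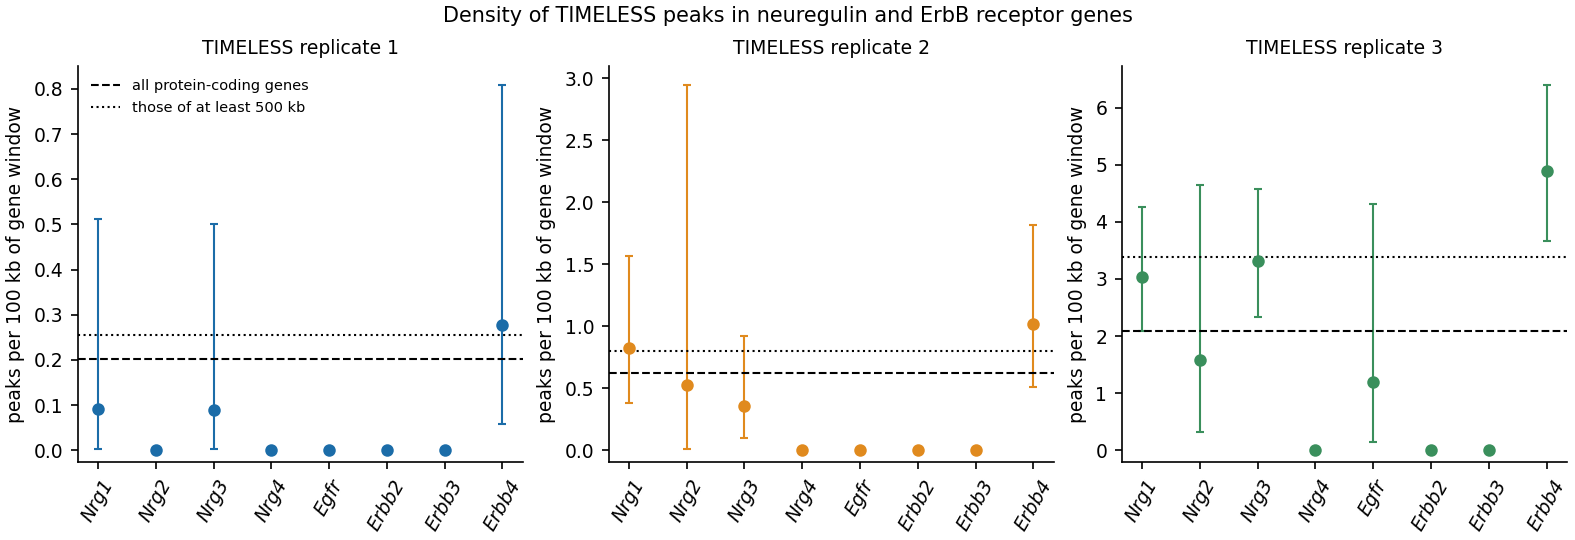
Peaks per 100 kb in each of the 8 genes with 3 kb on either side (vertical axis), with 1 panel for each TIMELESS library and its own scale. Points are densities, bars are 95% Poisson intervals (not drawn at 0), dashed lines are the density over all protein-coding genes and dotted lines that over genes of at least 500 kb. Erbb4 is the highest gene in each panel, at 0.277, 1.02 and 4.90, and Nrg4, Erbb2 and Erbb3 are at 0 in all.

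As libraries differ in depth, densities are best ordered relative to genes of at least 500 kb of the same library. On that scale Erbb4 had a mean of 1.27 ± 0.184 (SD, n = 3), Nrg1 0.762 ± 0.357, Nrg3 0.594 ± 0.340, Nrg2 0.377 ± 0.340 and Egfr 0.118 ± 0.204. Erbb4 was above Nrg1 and Nrg3 in 3 of 3 libraries. Nrg1 and Nrg3 did not differ beyond their spread, with Nrg1 higher in replicates 1 and 2 and Nrg3 higher in replicate 3. Nrg3 and Nrg2 did not differ beyond it either. The order was not tested, since 0.25 is the smallest two-sided p of an exact paired permutation test over 3 libraries.

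Ranked among the 227 protein-coding genes of at least 500 kb, Erbb4 lay in the upper part of the range in every library, with 94, 69 and 42 genes of higher peak density in replicates 1, 2 and 3. Nrg1 had 181, 101 and 126 genes above it, and Nrg3 had 184, 186 and 110. By density of shared sites, which was 0.462, 0.367 and 0.180 per 100 kb in Erbb4, Nrg1 and Nrg3, there were 80, 109 and 175 such genes above them. Over all genes of at least 500 kb it was 0.392, and over all protein-coding genes 0.293. Without replicate 3 the density of shared sites was 0.185, 0.0917 and 0.0898 in Erbb4, Nrg1 and Nrg3, against 0.169 over genes of at least 500 kb. The 8 genes pooled had 0.292 shared sites per 100 kb, which is near that of all protein-coding genes. None of the 3 genes is at an extreme of the long genes by any of these measures.

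The pooled peak density of the 8 genes was 0.133, 0.663 and 3.39 per 100 kb in replicates 1, 2 and 3, with a mean over libraries of 1.40 ± 1.75 (SD, n = 3). That was 0.659, 1.06 and 1.62 times the density over all protein-coding genes. Against genes of at least 500 kb it was 0.517, 0.828 and 1.004 times as high, and the 3 longest genes made up 87.1% of the sequence examined. Relative to all protein-coding genes the density was lower in replicate 1 and near that background in replicate 2. The value of replicate 1 rests on 5 peaks. Its 95% Poisson interval of 0.0430 to 0.309 includes 0.201, the density over all protein-coding genes. A turn of direction is thus not shown, though the density was above that background in the library labelled TIMELESS replicate 3. Without that library the mean fell to 0.398, without replicate 2 it was 1.76, and without replicate 1 it was 2.03.

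The strongest shared site of the group by height lay in Nrg1, near its upper-coordinate end, and was met by all 3 libraries. It spanned 32854909 to 32855585 on chromosome 8, 36.0 kb inside that end of the gene. Its pileup was 19, 26 and 62 in replicates 1, 2 and 3, or 2.26, 1.92 and 2.04 per 1000000 tags kept, called the scaled pileup below. The 3 libraries were thus nearly level once scaled for depth, with a mean of 2.07 ± 0.172 (SD, n = 3). Their folds were 4.60, 4.83 and 4.30, a mean of 4.58 ± 0.268, and their summits lay within 120 bp of each other. It was the only site of the 8 genes at which all 3 libraries had a −log10 q of at least 5, with 5.49, 8.33 and 18.0.

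A second site of Nrg1 lay 333 bp below it, at 32854207 to 32854575, with peaks of replicates 2 and 3 but not of replicate 1. Its pileup was 24 and 47, scaled to 1.77 and 1.54, and its folds were 4.54 and 3.41, with summits 18 bp apart. Another, at 32822201 to 32822681, had pileups of 19 and 18 and folds of 6.84 and 3.63 in replicates 2 and 3. Here the deeper library had the lower pileup, with a scaled pileup of 0.591 against 1.40, although the summits lay 12 bp apart. The fourth, at 32578947 to 32579349, was level between the libraries, with pileups of 14 and 32, scaled to 1.03 and 1.05, and summits 4 bp apart. The first 3 of these Nrg1 sites also lay within Gm39155, a long noncoding RNA gene annotated inside Nrg1, so they cannot be given to either gene alone.

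Erbb4 held both other sites of all 3 libraries. The site at 68407499 to 68407898 on chromosome 1 had pileups of 12, 14 and 33 in replicates 1, 2 and 3, scaled to 1.42, 1.03 and 1.08. Its folds of 3.92, 3.11 and 2.55 were low in every library, a mean of 3.20 ± 0.688 (SD, n = 3), and its summits lay within 87 bp. The site at 68879429 to 68881183 had pileups of 9, 16 and 49, scaled to 1.07, 1.18 and 1.61, and folds of 4.37, 5.82 and 6.34, a mean of 5.51 ± 1.02. Here replicates 1 and 3 met only at the edges of their peaks. The summits spanned 1093 bp, more than at any other shared site of the group, and when peaks were joined only if the overlap covered at least 50% of the narrower peak, the peak of replicate 1 dropped out of it.

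The other shared sites of Erbb4 were met by replicates 2 and 3. The pair at 68470026 to 68470879 and 68471678 to 68472075 lay 798 bp apart. The first had pileups of 19 and 29 and folds of 4.32 and 2.74. The second had pileups of 17 and 37, scaled to 1.25 and 1.21, and folds of 3.82 and 3.48. The site at 68569721 to 68570338 had pileups of 12 and 24 and nearly equal folds of 4.45 and 4.42. This last site was no longer shared when the overlap had to cover at least 50% of the narrower peak.

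Nrg3 held 2 shared sites, neither with all 3 libraries. The site at 39050613 to 39050976 on chromosome 14 was the only shared site of the group without a peak of replicate 3, with pileups of 11 and 12 in replicates 1 and 2, scaled to 1.31 and 0.884, and folds of 4.94 and 4.39. The site at 39193932 to 39194809 had pileups of 13 and 43 in replicates 2 and 3. Its fold was 4.79 in replicate 2 and 8.41 in replicate 3, the largest fold of any shared site of the group, and its summits lay 190 bp apart.

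**Figure D2:**
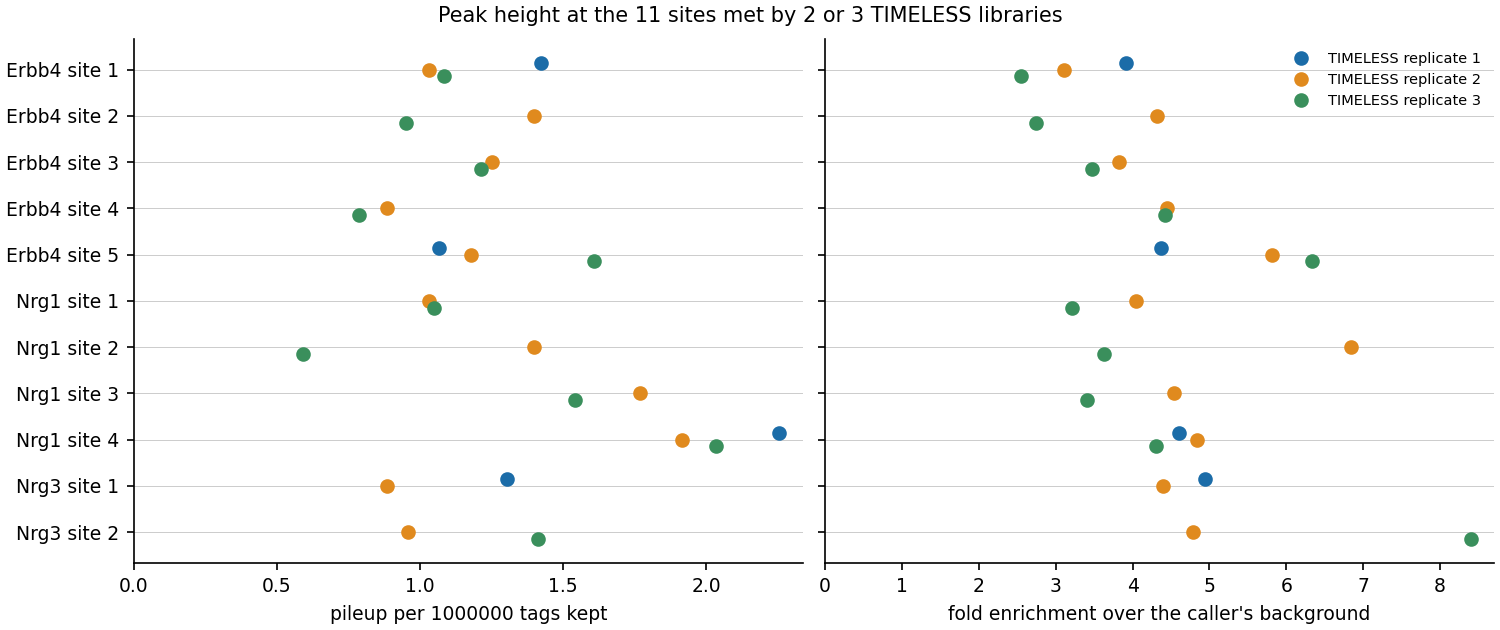
Height of each library's peak at the 11 shared sites, numbered within a gene from its lower-coordinate end, as pileup per 1000000 tags kept (left) and as fold over the caller's background (right). Each point is 1 library, and a missing colour means no peak of that library. Nrg1 site 4 is the highest on the left, at 2.26, 1.92 and 2.04 in replicates 1, 2 and 3, and Nrg3 site 2 holds the largest fold, 8.41.

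As a group these sites were of ordinary strength. Their median fold was 4.49 (n = 4), 4.45 (n = 11) and 3.55 (n = 10) in replicates 1, 2 and 3, against 4.997, 4.54 and 3.63 over all 11957 shared sites of the genome. The median scaled pileup was 1.37, 1.18 and 1.15, against 1.66, 1.25 and 1.02. Sites of all 3 libraries made up 27.3% of the 11 shared sites, against 29.1% of all shared sites. The most frequent combination was replicates 2 and 3 without replicate 1, at 7 of 11 sites, and it made up 53.9% of all shared sites. Replicate 2 had a peak at each of the 11 sites. Without replicate 2 only 3 shared sites were left, without replicate 3 it was 4, and without replicate 1 it was 10. Nrg1 and Erbb4 each held a shared site in all 3 of these cases, and Nrg3 held none without replicate 2.

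The deposited pileup was not scaled for depth, which changes the picture at the 10 sites with peaks of both replicates 2 and 3. As deposited, the pileup of replicate 3 was a median of 2.23 times that of replicate 2 (range 0.947 to 3.31). Of the scaled pileup the median ratio was 0.994 (range 0.422 to 1.47), with replicate 3 higher at 5 sites and lower at 5. The fold has its own dependence on the caller's background, which was not always local. In replicate 2 the peaks at 36050646 in Nrg2 and at 39194545 in Nrg3 both had pileup 13 and fold 4.79, although they lie on different chromosomes.

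Stricter thresholds removed most shared sites. At a −log10 q of at least 5, 3 of 11 sites stayed shared, 2 in Nrg1 and 1 in Erbb4. At a fold of at least 5 a single site was left, that of Erbb4 at 68879429, with replicates 2 and 3, and 3.73% of all protein-coding genes then held a shared site.

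Most sites came from the library labelled TIMELESS replicate 3 alone. Of its 128 peaks in the 8 genes, 10 lay in a shared site, or 7.81% (95% Clopper-Pearson interval 3.81 to 13.9), against 12.2% of its peaks over the genome. For replicate 2 it was 12 of 25 peaks, or 48.0% (27.8 to 68.7), against 46.0%. For replicate 1 it was 4 of 5 peaks, or 80.0% (28.4 to 99.5), against 74.5%. The shares of replicates 1 and 2 were thus near their own genome-wide shares, for replicate 1 on 5 peaks only. That of replicate 3 was lower, with an interval that includes 12.2%. Neighbouring peaks are not independent, so these intervals are too narrow. In Nrg3, 1 of the 37 peaks of replicate 3 lay in a shared site, or 2.70% (0.0684 to 14.2), against 4 of 33 in Nrg1 and 5 of 53 in Erbb4.

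The unshared peaks with the largest folds were of replicate 3 and lay in Nrg3. The peak at 39210350 to 39210882 had a pileup of 57, a fold of 11.1 and a −log10 q of 39.5, and that at 38497751 to 38498211 had a pileup of 45 and a fold of 8.79. In Nrg1 the highest fold of a peak of replicate 3 alone was 6.79, at 32506677 to 32507613, and in Erbb4 it was 6.30, at 68840814 to 68841344. Replicate 1 had a single unshared peak in the group, in Erbb4 at 68587607 to 68587892, with pileup 12 and fold 4.69.

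Over all its peaks in the 8 genes, replicate 3 had a median fold of 4.01 (n = 128, range 2.35 to 11.1), against 3.63 over its 89043 peaks. Of these 128, 22.7% had a fold of at least 5, against 15.6% of all. In replicate 2 the median was 4.45 (n = 25, range 2.82 to 6.84) against 4.41, and in replicate 1 it was 4.60 (n = 5, range 3.92 to 4.94) against 4.91. No peak of replicate 1 in the group reached a fold of 5, while 46.8% of all its peaks did.

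Along each long gene the peaks were counted in 4 equal parts, numbered from the lower-coordinate end, of 271, 277 and 269 kb in Nrg1, Nrg3 and Erbb4. In Nrg1, part 4 held 13 of the 33 peaks of replicate 3 and 7 of the 9 of replicate 2, and part 1 held 2 and 1. The single peak of replicate 1 lay in part 4 too, with 3 of the 4 shared sites. In Erbb4 the fullest part in replicates 2 and 3 was part 2, with 5 of 11 and 21 of 53 peaks and 4 of the 5 shared sites. In Nrg3 replicate 3 had 11 and 13 of its 37 peaks in parts 1 and 2, while both shared sites lay in part 3. No test of these positions was made.

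**Figure D3:**
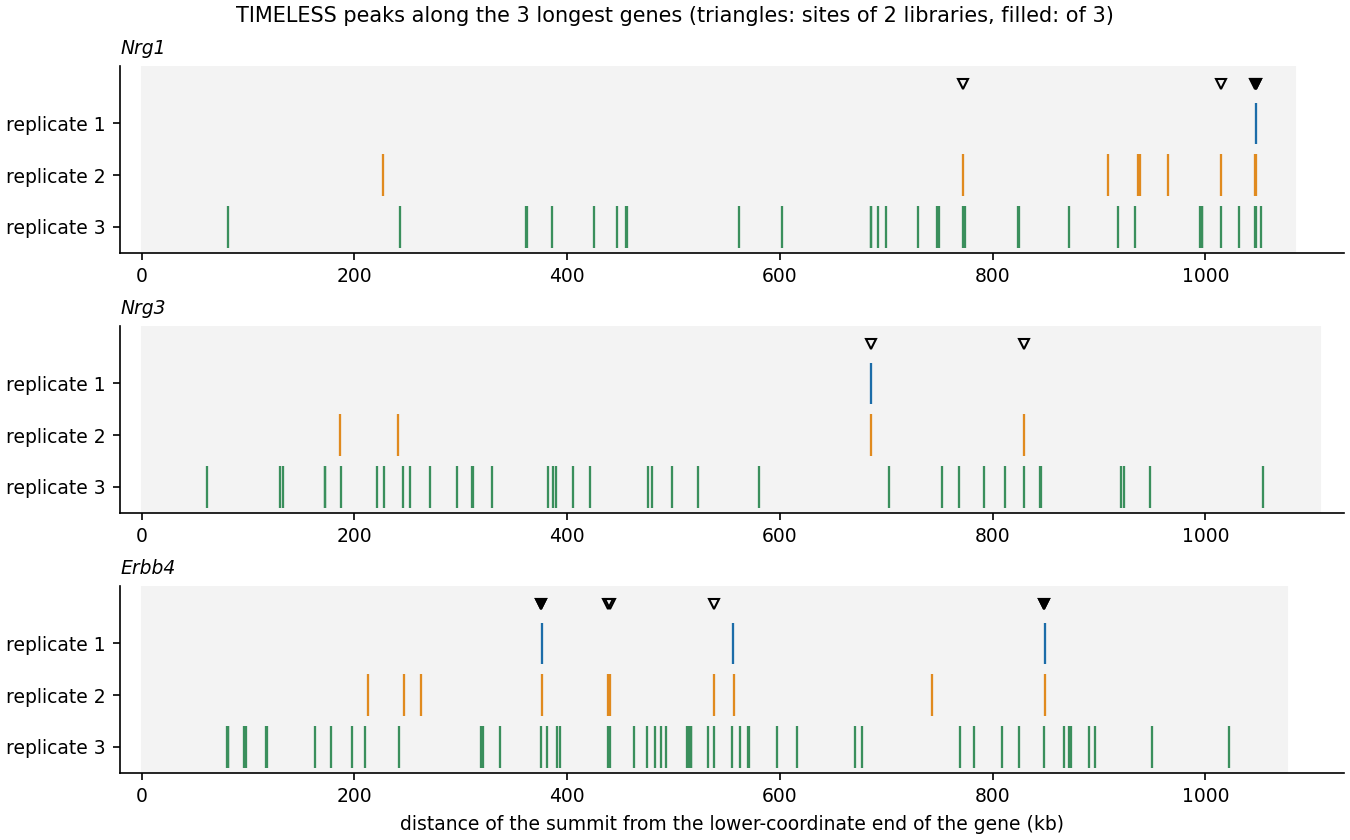
Summits of TIMELESS peaks along Nrg1, Nrg3 and Erbb4 (horizontal axis, distance from the lower-coordinate end of the gene in kb, grey: the gene body), with 1 row of ticks for each library. Open triangles mark sites of 2 libraries and filled ones sites of all 3. In Nrg1, 3 of the 4 shared sites start at 1015 kb or beyond, and in Erbb4 4 of the 5 start between 376 and 538 kb.

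No peak of any library lay at the start of a member for which a start was at hand. A promoter position with its strand was at hand for 5 members, Nrg3, Nrg4, Egfr, Erbb2 and Erbb4, as the 250 bases before and 50 after the RefSeq start (GRCm38.p6). None of these 5 had a peak of any TIMELESS or input library within 1 kb. The nearest peak of replicates 1, 2 and 3 lay 227, 37.6 and 37.6 kb from the promoter of Erbb4 and 78.1, 78.3 and 15.1 kb from that of Nrg3. For Erbb2 it was 95.8, 50.8 and 7.67 kb. Both Erbb4 and Nrg3 lie on the minus strand, and their shared sites lay 228 to 700.4 kb and 279 to 422 kb downstream of the start. Those positions are deep inside both genes. Nrg1, Nrg2 and Erbb3 were not analysed here in this respect, and whether sites are exonic or intronic was not analysed either.

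The measured density was higher beside Nrg1 and Nrg3 than inside them, while for Erbb4 this depended on the width compared. This comparison with the 500 kb on each side of a gene, beyond the 3 kb, was chosen after the values were seen and counts summits. In Nrg3 replicate 3 had 3.32 summits per 100 kb inside (95% Poisson interval 2.34 to 4.58) and 7.10 outside (5.55 to 8.96). In Nrg1 it had 3.03 (2.08 to 4.25) inside and 4.70 (3.45 to 6.25) outside, by intervals that overlap. In Erbb4 it had 4.90 (3.67 to 6.40) inside and 5.20 (3.88 to 6.82) outside, and these intervals overlap too.

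The density inside was the lower one in 9 of 9 pairs of these 3 genes and 3 libraries, with ratios of 0.299 to 0.941. The libraries share the same genes and flanks, so these pairs are not independent. Those of replicate 1 rest on 1 summit inside against 3 outside in Nrg1 and in Nrg3, and 3 against 4 in Erbb4. With 200 kb on each side the density inside was the lower one in 7 of 9 pairs. The exceptions were Erbb4 in replicate 1, with 0.277 inside and 0 outside, and in replicate 3, with 4.90 inside and 4.75 outside. With 500 kb, pooled over the 3 genes, the ratio was 0.456, 0.548 and 0.660 in replicates 1, 2 and 3, and the mean over libraries was 0.555 ± 0.102 (SD, n = 3). Over all 227 protein-coding genes of at least 500 kb it was 0.820, 0.778 and 0.877. For the 3 genes and their pool, the intervals inside and outside were apart in replicate 3 for Nrg3 and for the pool, and overlapped in the other cases. With 200 kb those of the pool and of Nrg3 overlapped in replicate 3 as well, for Nrg3 at 2.34 to 4.58 inside and 4.45 to 9.82 outside. For the 227 genes they were apart in all 3 libraries. Neighbouring peaks are not independent, so these intervals are too narrow, and other genes lie in the flanks.

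The shorter genes varied. Around Egfr, replicate 3 had 57 summits in the flanks, or 5.70 per 100 kb, against 1.19 in the gene. Around Nrg4 it had 26, or 2.60 per 100 kb, and around Erbb3 12, or 1.20 per 100 kb, against 0 in each gene. Both genes are short, and their intervals inside reach 5.31 and 13.1 per 100 kb, so a lower density inside is not shown. Around Nrg2 and Erbb2 peaks were few on the outside too, with 6 and 7 summits, or 0.600 and 0.700 per 100 kb. Nrg2, with 3 summits or 1.59 per 100 kb (0.327 to 4.64), was thus denser than its flanks (0.220 to 1.31), by intervals that overlap.

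**Figure D4:**
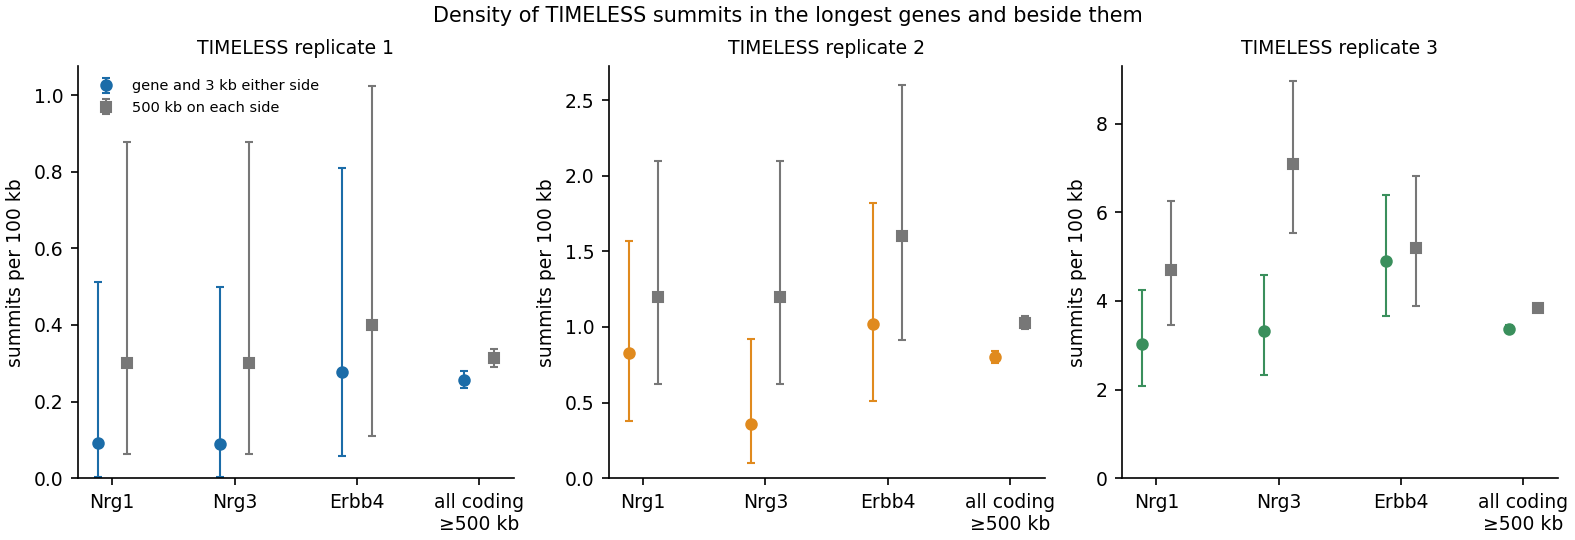
TIMELESS summits per 100 kb in Nrg1, Nrg3, Erbb4 and all protein-coding genes of at least 500 kb (circles: gene and 3 kb either side; squares: the next 500 kb on each side), with 1 panel for each library and its own scale. Bars are 95% Poisson intervals. With these flanks of 500 kb the circle lies below the square for every gene. In summits per 100 kb the widest gap is that of Nrg3 in replicate 3, at 3.32 against 7.10. As a ratio of inside to outside, Nrg3 had 0.299 in replicates 1 and 2 and 0.468 in replicate 3.

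Other genes of the pathway, 54 in all, were listed by role, with earlier results of these data known. Of them, 8 held a shared site, or 14.8%, against 9.92% of all protein-coding genes, whose median length was 17.2 kb against 66.2 kb in the list. They were 1 of 7 other EGF family ligands, 1 of 5 proteases, 4 of 29 adaptors and kinases, 2 of 11 regulators and 0 of 2 synaptic partners. A further 28 of the 54 held no TIMELESS peak, against 65.2% of all protein-coding genes, so their lack of peaks is not particular to the list. Among them were the ligand genes Egf, Hbegf, Areg, Ereg and Epgn and the protease genes Adam17 and Bace1. The input had 0 peaks in the list.

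A site of all 3 libraries lay in 2 of these genes, or 3.70%, against 4.18% of all protein-coding genes. In Sos2, which encodes a Ras exchange factor, the site on chromosome 12 at 69608356 to 69608885 had pileups of 15, 33 and 22 in replicates 1, 2 and 3 and folds of 6.99, 10.6 and 4.39, so the deepest library had the smallest fold. In Wwox, which encodes a WW domain protein that binds the intracellular part of ErbB4, the pileups were 12, 12 and 30 and the folds 5.35, 4.45 and 5.92, a mean of 5.24 ± 0.744 (SD, n = 3). Wwox spans 913 kb and is the longest gene of the list.

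Sites of 2 libraries lay in 6 further genes, of which 5 are described. In Lrig3, of a family of transmembrane proteins known as regulators of receptor tyrosine kinases, the folds were 5.68 and 5.47 in replicates 1 and 2. In the kinase gene Src they were 4.14 and 4.65 in the same libraries. In Btc, which encodes betacellulin, a ligand of EGFR and ErbB4, the folds were 4.10 and 6.29 in replicates 2 and 3. In the adaptor gene Nck1 they were 3.78 and 4.74, and in the metalloprotease gene Adam19 they were 5.82 and 3.06.

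The count of 8 was 6 without replicate 1, 5 without replicate 3 and 2, Sos2 and Wwox, without replicate 2. All protein-coding genes with a shared site fell as well, to 8.48%, 5.54% and 4.79% in the same order. At a −log10 q of at least 5 the count was 2, Sos2 and Lrig3, with 5.57% of all protein-coding genes, and at a fold of at least 5 it was 3, these and Wwox, with 3.73%.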

How the data were processed

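Each library has 1 deposited peak list. MACS 2.1.2 called the peaks library by library, without a control, with a q value cutoff of 0.05 and no more than 1 tag per position, per the file headers. The build mm10 and the tools Bowtie2 2.4, SAMtools 1.14, MACS2 2.1.1 and deepTools 2.0 are named per the submitters' processing notes, and the MACS version differs from that in the headers. The deposited pileup is a signal (coverage at the summit, not scaled for depth). The deposited fold is the caller's enrichment over its background, which is not the plain ratio of pileup to background. The authors' p and q values are given as −log10. Fold, pileup and q are the authors' values for each peak.

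Only chromosomes 1 to 19, X and Y entered. Gene positions came from the RefSeq table of GRCm38.p6, and all 8 members and all 54 pathway genes matched. Peaks were counted in a gene where they overlapped its body or 3 kb either side. Densities are peaks per 100 kb, and pooled densities divide summed peaks by summed windows. Sites were merged TIMELESS peaks, at least 1 bp overlapping, outside input peaks. The merging and counting were tested on simulated data. Intervals are 95% and cover counting error only. The scaled pileup is per 1000000 tags kept. Python 3.11.15, pandas 2.3.3, NumPy 2.4.6 and SciPy 1.17.1 were used.

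Members and lists were chosen with earlier results of these data known. All 8 members, every shared site in them and each pathway gene with a shared site are named, except 1 pathway gene that is counted but not reported here. The strongest unshared peaks were chosen after their values were seen. No p value was computed. Sequences of the peaks were not used here. Alternatives were thresholds, windows, overlaps and libraries left out.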

Additional observations from a re-analysis of the deposited data

How the results depend on the processing

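Apart from the mean density, 12 of 39 alternative values moved by more than 1.5 times or, for a value with a spread, by more than its SD. Genes with a shared site fell from 3 to 1 at a fold of at least 5. Shared sites fell from 11 to 3 at a −log10 q of at least 5 and to 1 at a fold of at least 5. Sites of all 3 libraries fell from 3 to 1 and to 0, and pathway genes from 8 to 2 and to 3, at the same thresholds. Stricter thresholds keep fewer peaks by construction. With 1 library left out, member genes with a shared site ranged from 2 to 3, shared sites from 3 to 10, pathway genes from 2 to 6, and the mean density from 0.398 to 2.03 per 100 kb. That density was 0.875 at a −log10 q of at least 5 and 0.292 at a fold of at least 5. Its SD of 1.75 exceeds its mean of 1.40, so no fall could pass it, but 3 of its 10 alternative values differed by more than 1.5 times. Sites of all 3 libraries have no value with a library left out. Scaling the pileup for depth moved the median ratio of replicate 3 to replicate 2 from 2.23 to 0.994. The window (body only, or 10 kb either side), the overlap rule, keeping sites over input peaks and joining peaks up to 500 bp apart, which was chosen after seeing the data, left the number of member genes at 3 and the shared sites at 10 or 11. With flanks of 200 kb the ratio of density inside to outside was 0.569 ± 0.124 (SD, n = 3), also chosen after seeing the data. No paired analysis was possible because the groups compared, TIMELESS and input, share fewer than 2 replicate numbers. Replicate 1 had the fewest tags and the fewest peaks, 5 in the 8 genes, and the part of depth was not tested.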
